A study of Mus musculus with 289 samples.

Results

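Glycolysis splits glucose into pyruvate in the cytoplasm, and lactate dehydrogenase turns pyruvate into lactate when the carbon does not enter the mitochondrion. Glucose first enters an epidermal keratinocyte through facilitative transporters, mainly the Slc2a1 product Glut1, and hexokinase and phosphofructokinase then commit it to the pathway. Basal keratinocytes of mouse skin, which divide and rest on the basement membrane, are known for Glut1 on their surface, and they switch from keratin 14 to keratin 10 when they leave the basal layer.

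The transcripts described here belong to 10 named genes, the transporter Slc2a1 and the enzymes Hk2, Pfkl, Aldoa, Gapdh, Pgk1, Pgam1, Eno1, Pkm and Ldha. They were taken by symbol, and 9 of the 10 symbols had a row among the 15019 rows of the table. Aldoa had none. The table held 27 rows whose symbol carried a numbered suffix, and "Aldoa-I" was among them. The sources used here do not say which Aldoa gene that row counts, so its values are given apart and it was not counted as a member.

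The cells were single tomato-positive epidermal cells from tail skin of mice that carried Lrig1-EGFP-ires-CreERT2 together with the reporter Rosa26-fl/STOP/fl-tdTomato on a CBA C57BL/6 mixed background, labelled as keratinocytes at time t0. A single topical dose of hydroxytamoxifen had marked the Lrig1-expressing cells of the upper hair follicle and their progeny, and the skin then received vehicle or PRT4165, which blocks Ring1a and Ring1b, the enzymes that attach ubiquitin to histone H2A in Polycomb complexes. Both groups shared the genotype and the labelling, and the methods describe young adult mice, female for single-cell sequencing. Cre was driven from the Lrig1 locus and the sort took tomato-positive cells, so the epidermis was sampled through that lineage mark.

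Each library was 1 cell sequenced as full-length cDNA without molecular identifiers, and 289 cells lay on 4 plates, with 2 plates per treatment. Filters on genes per cell and on mitochondrial counts left 274 cells, of which the vehicle plates held 70 and 55 and the PRT4165 plates 72 and 77 (replicates 1 and 2 in this order, here and wherever paired values follow). Plate totals ran from 25761756 to 41592716 counts and median counts per cell from 141985 (vehicle replicate 1) to 538754 (PRT4165 replicate 2). The plate was the unit of replication. The labels give each replicate number as a batch with 1 plate of either treatment. A code in the treatment label that differs between vehicle and PRT4165 is unexplained and cannot be told apart from the treatment, and the mice behind a plate are not given, so p-values measure the spread between plates only.

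Cells were sorted into 3 classes by the keratins and Mki67. Levels are given as CPM, a count divided by the total of its library and brought to the usual common scale. A cell with at least 10 CPM of Mki67, a proliferation antigen, was called Mki67-positive (40 cells). Any other cell with at least 100 CPM of either keratin was called Krt14-high (134 cells) or Krt10-high (91 cells) after the larger of the 2, and 9 cells stayed unassigned. Markers that the rule did not use went with the names. Krt5, the basal partner of Krt14, was detected in 87.3% of Krt14-high and 44.0% of Krt10-high cells, and Krt1, the suprabasal partner of Krt10, in 6.72% and 45.1%. Top2a, a topoisomerase of dividing cells, was detected in 62.5% of Mki67-positive, 17.9% of Krt14-high and 12.1% of Krt10-high cells. In 16 cells Krt14 and Krt10 lay within 2-fold of each other, and 6 of the Mki67-positive cells had under 20 CPM of Mki67.

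The promoters carry a feature that the choice of genes did not use. Hypoxia-inducible factor 1 (HIF1), a known activator of glycolytic genes, binds sites with the core letters ACGTG or GCGTG, and MYC, another known activator, binds CACGTG, which contains ACGTG on both strands. RefSeq promoter windows of 300 bases (250 before and 50 after the annotated start, GRCm38.p6) were found for all 9 genes, 13 windows in all. Each gene held at least 1 core on either strand in a window and 8 held 2 or more, against 43.8% and 20.6% of all 32851 windows in the same set; a gene with several windows has more chances of a match. Pfkl held 1. The first Pkm window held none, and its second held 2. The GC content of the 13 windows ran from 56.7% to 69%, both cores contain CG, and the set of all windows was not matched for it. A match shows the letters only and not binding. The 250 bases before the start are printed for 4 genes, the transporter, the gene whose level differed most between cell classes relative to its error, the kinase gene that peaked in Mki67-positive cells of several plates, and the promoter with the most cores, with the core on either strand in capitals (CACGT and CACGC are the cores read on the other strand, and CACGTG counts as a core on each).

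Slc2a1, chr4:119108495-119108744, plus strand: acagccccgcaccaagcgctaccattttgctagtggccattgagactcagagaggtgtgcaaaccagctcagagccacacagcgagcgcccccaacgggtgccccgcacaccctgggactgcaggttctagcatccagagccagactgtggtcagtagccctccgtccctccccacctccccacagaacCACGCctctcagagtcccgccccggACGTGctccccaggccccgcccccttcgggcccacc
Gapdh, chr6:125165774-125166023, minus strand: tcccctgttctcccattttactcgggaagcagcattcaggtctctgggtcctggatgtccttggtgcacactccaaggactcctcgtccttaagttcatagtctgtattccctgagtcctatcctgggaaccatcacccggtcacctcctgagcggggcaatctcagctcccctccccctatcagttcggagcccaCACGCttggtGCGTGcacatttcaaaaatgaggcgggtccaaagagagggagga
Pgk1, chrX:106186850-106187099, plus strand: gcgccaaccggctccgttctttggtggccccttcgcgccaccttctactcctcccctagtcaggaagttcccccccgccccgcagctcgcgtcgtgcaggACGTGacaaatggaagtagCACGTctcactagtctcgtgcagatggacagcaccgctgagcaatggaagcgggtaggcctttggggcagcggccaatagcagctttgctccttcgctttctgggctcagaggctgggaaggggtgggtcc
Ldha, chr7:46845554-46845803, plus strand: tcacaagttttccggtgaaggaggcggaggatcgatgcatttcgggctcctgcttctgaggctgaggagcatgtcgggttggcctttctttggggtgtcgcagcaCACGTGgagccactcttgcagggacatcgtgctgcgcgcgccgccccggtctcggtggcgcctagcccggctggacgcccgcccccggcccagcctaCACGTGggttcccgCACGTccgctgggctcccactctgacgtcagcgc

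The first Ldha window held 7 cores, of which 5 were ACGTG and 2 GCGTG, and 2 of its places read CACGTG, a word found in 7.15% of all windows. In the Slc2a1 window an ACGTG and a GCGTG stood a short way before the start, and the Pgk1 window had ACGTG once on each strand.

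The 9 transcripts spanned a wide range of abundance. Per kilobase of the longest coding transcript in GENCODE M21, Gapdh was highest at 343 ± 149 CPM per kb (mean ± SD, n = 4 plates). Ldha followed at 95.3 ± 13.2, and the plate ranges of these 2 and of Pgk1, the next by mean, lay apart. The range of Eno1, which reached 88.0, overlapped that of Ldha, which began at 86.6. Pgk1 (57.7 ± 9.36), Eno1 (46.6 ± 28), Pgam1 (38.7 ± 15.2) and Pkm (27.0 ± 12.6) came next, and the plate ranges of neighbours in this order overlapped. The entry steps were lowest, with Slc2a1 at 4.60 ± 2.73, Hk2 at 1.16 ± 0.716 and Pfkl at 0.375 ± 0.216 CPM per kb, and neighbours among these 3 overlapped as well. With the median coding transcript as length, Eno1 and Pkm ranked above Pgk1 and Pgam1, while Gapdh and Ldha stayed first and the entry genes last.

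Detection in single cells separated the same sets. Gapdh, the dehydrogenase that makes NADH from glyceraldehyde phosphate, had a count in 266 of 274 cells (97.1%, 95% Wilson interval 94.3 to 98.5). Ldha was detected in 220 cells (80.3%), Pkm in 203 (74.1%), Eno1 in 185 (67.5%), Pgk1 in 178 (65.0%) and Pgam1 in 167 (60.9%). The entry genes were found in a minority of cells, Hk2 in 81 (29.6%), Slc2a1 in 64 (23.4%, interval 18.7 to 28.7) and Pfkl in 20 (7.30%). All 9 were detected together in 1 cell and 0 in 2 cells, while 5 were found in 55 cells, 6 in 61 and 7 in 56. Intervals cover counting error only.

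Few cells carried most of the counts of the entry genes. For Slc2a1, 8 cells held 50% of all counts and 31 cells held 90%. For Hk2 these numbers were 9 and 38, and for Pfkl 4 and 12. By contrast, 38 cells held 50% of the Gapdh counts and 141 held 90%. The highest Slc2a1 cell on vehicle replicate 1 gave 46.0% of that plate's Slc2a1, the highest Hk2 cell on vehicle replicate 2 gave 55.3%, and the highest Pfkl cell there gave 75.0%. Plate levels of these 3 genes rest on few cells, as the plot of single cells by plate shows.

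**Figure D1:**
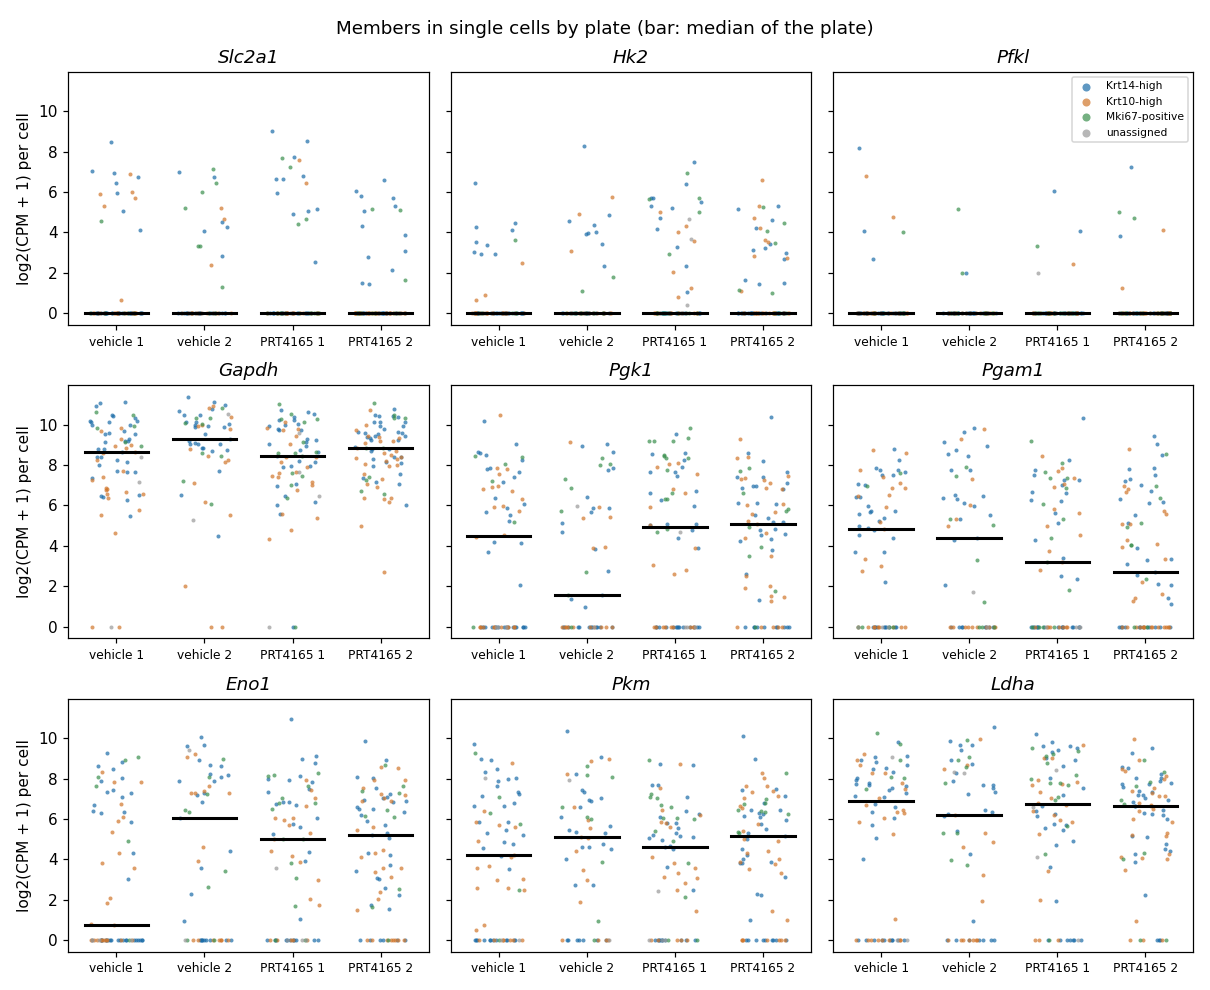
Each point is 1 cell, with log2(CPM + 1) of a member on the vertical axis, the 4 plates on the horizontal axis, colour giving the cell class and the black bar the plate median. The median of Slc2a1, Hk2 and Pfkl is 0 on each plate, while Gapdh was detected in 266 of 274 cells.

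Reads of several members fit more than 1 gene. Of all 75-base windows of their annotated transcripts, the share found identically in transcripts of another gene was 67.5% for Pgk1, 55.5% for Gapdh, 44.3% for Eno1, 40.6% for Pgam1, 14% for Pkm and 3.11% for Ldha. It was 0% for Slc2a1, Hk2 and Pfkl. Eno1 shared 43.5% with Eno1b, a near-identical enolase gene that had its own row. Gapdh shared 40.7% with 4 genes that had their own rows, Gm10358 the most. Levels of Pgk1, Gapdh, Pgam1 and Eno1 are uncertain to that extent.

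The first comparison asked whether PRT4165 altered these transcripts. No member passed the test between PRT4165 and vehicle plates. In edgeR's quasi-likelihood test on plate sums, 0 of 12791 genes passed an adjusted p of 0.05 (0% called), 630 (4.93%) had an unadjusted p under 0.05, and each of the 9 members had an adjusted p of 0.997 and none an unadjusted p under 0.05. With DESeq2 172 genes passed, 0 of them members. Fitted log2 differences of the members ran from -0.77 to 1.01 with a median of -0.17, beside -0.02 over all genes. In simulated plates the test recovered 18.2% of 8-fold and 5.97% of 4-fold changes in this comparison, so changes of such size could pass unseen.

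Slc2a1, which lets glucose in, stood at 26.4 and 10.8 CPM of the summed cells under vehicle and at 17.0 and 5.72 under PRT4165. The groups overlapped, and replicate 1 was over 2-fold above replicate 2 in both. Within a replicate number PRT4165 was lower both times, by log2 values of -0.63 and -0.92. The fitted log2 difference, PRT4165 minus vehicle, was -0.77 (SE 0.91, 95% interval -2.86 to 1.33). Without vehicle replicate 1, the plate on which a single cell gave 46.0% of the Slc2a1 counts, it was 0.23.

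Hk2, the inducible hexokinase that traps glucose as its phosphate, had 1.36 and 7.54 CPM under vehicle and 10.8 and 5.79 under PRT4165. Vehicle replicate 1 was lowest, and the log2 difference was 3.0 within replicate number 1 and -0.38 within number 2 (fitted 1.01, SE 1.09). The share of cells with an Hk2 count was higher on both PRT4165 plates, 37.5% and 35.1% against 18.6% and 25.5%, and remained higher when each cell was thinned to 50000 counts, at 24.4% ± 4.97 against 17.8% ± 3.62 (SD, n = 2 plates each, exact permutation p = 0.333, two-sided, the smallest that 2 against 2 plates allow).
Pfkl, the liver-type phosphofructokinase, was at 1.82 and 0.576 CPM under vehicle and 0.884 and 2.31 under PRT4165. The plates overlapped and the numbers went opposite ways (fitted log2 0.40, SE 1.44).

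Gapdh, the most abundant member, had 296 and 753 CPM under vehicle and 339 and 559 under PRT4165. The vehicle plates were farther apart than the treatments (log2 -0.12, SE 0.54, interval -1.35 to 1.11). Pgk1, which makes the first ATP of the pathway, was at 120.1 and 83.7 CPM under vehicle and 118 and 99.7 under PRT4165 (log2 0.09, SE 0.54). Here vehicle replicate 2 was the lowest plate, whereas it was the highest for Pgam1, Eno1, Pkm and Ldha. The class makeup of the plate sums differed too. Krt10-high cells gave 16106833 of 25761756 and 9503035 of 34714003 counts on the vehicle plates. On the PRT4165 plates they gave 15223291 of 38461239 and 19973737 of 41592716. Mki67-positive cells gave 903835 and 8261308 counts under vehicle and 6826792 and 4742134 under PRT4165. The part of this makeup in the plate levels was not tested.

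Pgam1, the phosphoglycerate mutase, had 51.4 and 109 CPM under vehicle and 55.5 and 58.6 under PRT4165, with a log2 difference of -0.41 (SE 0.57). Eno1, the enolase, had 57.9 and 178 against 61.3 and 80.3 CPM (log2 -0.63, SE 0.62). Pkm, the pyruvate kinase, had 49.0 and 107 against 36.8 and 69.4 CPM (log2 -0.46, SE 0.63). For these 3 enzymes vehicle replicate 2 was the highest plate, and within replicate number 1 the log2 values were 0.11, 0.08 and -0.41. Without it the fitted values became 0.05 for Pgam1, 0.19 for Eno1 and 0.03 for Pkm, and Gapdh became 0.51, Pgk1 -0.25 and Pfkl -0.27.

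Ldha, the muscle-type lactate dehydrogenase subunit, was the single member whose plates did not overlap, at 163 and 209 CPM under vehicle and 163 and 157 under PRT4165, and this held after TMM scaling. Of all genes, 16.3% lay lower on both PRT4165 plates (15.6% after scaling) and 15.4% higher. Vehicle replicate 1 and PRT4165 replicate 1 differed by less than 1 CPM, and the fitted log2 difference was -0.17 (SE 0.47, interval -1.25 to 0.90). Per cell the direction was opposite. A Ldha count was present in 83.3% and 89.6% of cells on the PRT4165 plates against 71.4% and 74.5% on the vehicle plates, and after thinning in 84.0% ± 2.93 against 69.7% ± 6.90 (exact permutation p = 0.333), and the difference of plate means of log2(CPM + 1) per cell was 0.62. Eno1 had a thinned share of 65.3% ± 1.93 against 54.0% ± 2.13 (exact permutation p = 0.333), and of the 9 members Hk2, Gapdh, Eno1 and Ldha were higher on both PRT4165 plates in thinned share, as were 24.3% of the 12778 nuclear genes tested and 35.9% of the 3565 among them with a count in at least 25% of thinned cells. Averaged over the 9 members the thinned share was 3.54 percentage points higher under PRT4165. Single members ran from -7.98 (Pgam1) to 14.3 points (Ldha). The SD of the average difference, 1.97, came from the spread between plates and not between members. The mean was 1.60 points over the tested genes and 3.90 over those 3565. Without thinning the average over members was 6.79 points higher, where cells of vehicle replicate 1 were the shallowest. The median number of genes with a count in a cell was 3084.5 and 3352 under vehicle and 3613.5 and 3903 under PRT4165, and its part was not tested.

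**Figure D2:**
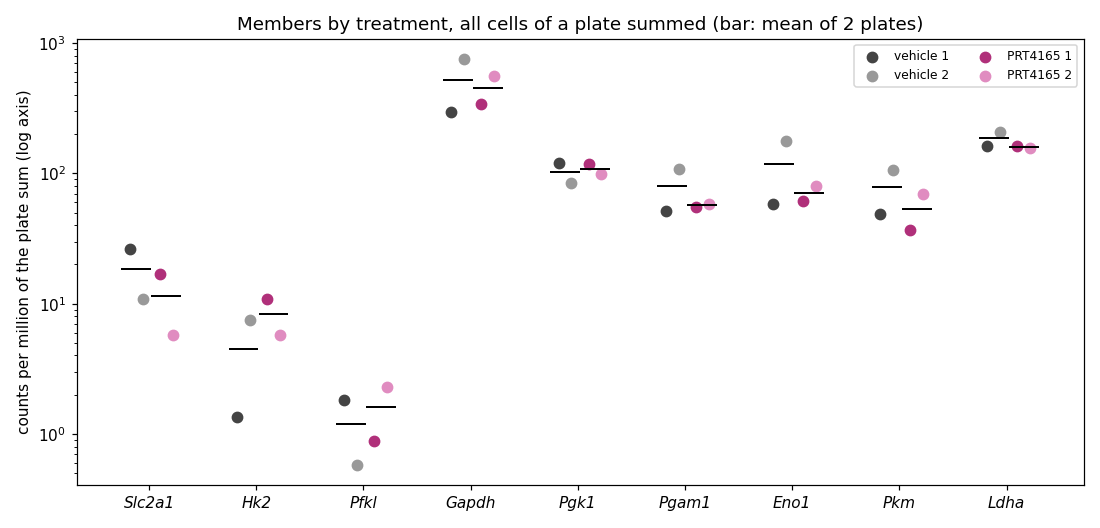
CPM of each plate's summed cells are on a log axis for the 9 members, with 1 point per plate and a bar at the mean of the 2 plates of a treatment. The plates of the 2 treatments overlap for 8 members, and for Ldha the PRT4165 plates (163 and 157 CPM) lie just under the vehicle plates (163 and 209 CPM).

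The Eno1 level is tied to that of Eno1b. The Eno1b row had 2.50 and 4.21 CPM under vehicle, in 16 and 21 cells, and 14.6 and 25.5 CPM under PRT4165, in 27 and 51 cells. Both PRT4165 plates lay above both vehicle plates (log2 2.66, SE 0.88, edgeR unadjusted p = 0.0163, adjusted p = 0.923, so not called). Eno1b made up 4.13% and 2.3% of the summed Eno1 and Eno1b level under vehicle and 19.2% and 24.1% under PRT4165, and the sum, 60.4 and 183 against 75.9 and 106 CPM, overlapped. How reads were divided between the pair was not tested.

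Within the cell classes no member passed the test between treatments either. In Krt14-high cells 0 of 11332 genes were called by edgeR (0%, with 671 or 5.92% at an unadjusted p under 0.05), and in Krt10-high cells 0 of 10148 (0%, with 524 or 5.16%). DESeq2 called 226 and 207, without a member. In Krt14-high cells Eno1 and Pkm were lower on both PRT4165 plates, beside 18.8% of all genes (17.2% after TMM scaling, and 15.5% higher), with TMM-scaled levels of 109 and 202 against 93.9 and 90.2 CPM for Eno1 and of 95.5 and 109 against 45.4 and 55.7 CPM for Pkm. The log2 differences were -0.75 (SE 0.62) and -1.01 (SE 0.67, interval -2.56 to 0.53). Eno1b, whose reads overlap those of Eno1, was higher on both PRT4165 plates in these Krt14-high cells. Its log2 difference was 3.45 (SE 1.23, edgeR unadjusted p = 0.0229, adjusted p = 0.717, so not called). The part of reads divided between Eno1 and Eno1b in the lower Eno1 was not tested. The 6 upper hair follicle markers, all with a row, summed in the same cells to 47718 and 41629 CPM under vehicle and to 20697.5 and 6482 CPM under PRT4165, with 5 of the 6 lower on both PRT4165 plates. The 10 basal markers, 4 of them lower on both, summed to 6778 and 6491 against 5401.5 and 3896 CPM. The part of these markers in the Eno1 and Pkm values was not tested. In Krt10-high cells the plates overlapped for all 9, beside 18.4% of genes higher and 13.3% lower on both PRT4165 plates, and Gapdh had a log2 difference of 0.34 (SE 0.80), which was -0.19 without vehicle replicate 1 and -0.24 without PRT4165 replicate 2. The difference between both class effects was tested as an interaction and called 0 of 11151 genes by edgeR (0%, with 366 or 3.28% at an unadjusted p under 0.05, and 102 by DESeq2 with 0 members). Its largest member value was that of Slc2a1 at -4.27 (SE 3.0, interval -10.98 to 2.44), against 0.60 (SE 0.72) for Gapdh. The Slc2a1 value rests on few Krt10-high cells. These had 0 counts on PRT4165 replicate 2, and a single cell gave 85.9% of them on PRT4165 replicate 1 and 79.0% on vehicle replicate 1.

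The second comparison set cells that express the suprabasal keratin against cells that express the basal one on the same plates. Fitted levels of all 9 members were lower in Krt10-high than in Krt14-high cells, with a median log2 difference of -0.58 beside -0.16 over all genes, of which 55.2% were fitted below 0. None passed the threshold. The edgeR test with a plate term called 1 of 11151 genes (0.00897%), Mt4, a metallothionein of stratified epithelium, at 5.81 (adjusted p = 0.0225), named after its value was seen, and 1043 genes (9.35%) had an unadjusted p under 0.05, Gapdh among them as the single member. DESeq2 called 702 genes and 0 members. The class-defining Krt10 itself, at a log2 difference of 6.68, had an adjusted p of 0.209 in the edgeR test, so even a change of that size was not called. In simulated classes 16.7% of 8-fold and 0% of 4-fold changes were recovered.

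Gapdh differed most against its error. TMM-scaled Gapdh in Krt14-high and Krt10-high cells was 496 and 191 CPM on the first vehicle plate, 844 and 490.2 on the second, 435 and 282 on the first PRT4165 plate, and 680.3 and 558 on the second. Krt10-high cells were lower on each plate. The log2 difference was -0.74 (SE 0.33, interval -1.46 to -0.01, edgeR unadjusted p = 0.0468, adjusted p = 0.531), and it ranged from -0.95 to -0.59 when each plate was left out in turn.

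In scaled values 3 of the 9 members, Pfkl, Gapdh and Pgk1, were lower in Krt10-high cells on all 4 plates, beside 11.8% of all genes (11.7% with RLE scaling, which named the same 3). Without scaling these were 6, with Slc2a1, Eno1 and Ldha added, beside 20.8% of all genes, so the count depends on the scaling. Pgk1 barely met it, at 118 against 117 CPM on PRT4165 replicate 2, and its log2 difference was -0.35 (SE 0.52). Pfkl met it on few counts, with 3 counts in 1 Krt14-high cell against 0 in Krt10-high cells on vehicle replicate 2. The summed level of the 9 members before scaling was 476 against 1203 and 824 against 1743 CPM on the vehicle plates and 537 against 1027 and 881 against 1203 CPM on the PRT4165 plates, each time lower in Krt10-high cells. TMM factors of the Krt10-high sums were 0.686 to 0.844 against 1.02 to 1.13 for Krt14-high sums.

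Slc2a1 transcripts were found in 12.1% of Krt10-high and 28.4% of Krt14-high cells, and after thinning in 11.7% ± 8.78 and 25.3% ± 7.77 (SD, n = 4 plates). The mean thinned share was lower in Krt10-high cells for each of the other members too. It was 46.91% against 59.57% for Pgam1 and 69.06% against 78.91% for Ldha. The shift over all genes between these classes was not computed, so whether Slc2a1 exceeded it was not tested. On PRT4165 replicate 2, 0 of 30 Krt10-high cells had a Slc2a1 count, which allows a share of up to 10%. On vehicle replicate 1 the order turned, with 35.9 CPM in Krt10-high and 29.4 CPM in Krt14-high cells after scaling, on the plate where a single cell dominated. On the other plates it was 5.0 against 6.93, 8.20 against 27.0 and 0 against 13 CPM. The log2 difference was -1.66 (SE 1.56, interval -5.08 to 1.76), and leaving out each plate in turn gave values from -3.0 to -0.54.

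Hk2 was lower in Krt10-high cells on 3 plates and higher on PRT4165 replicate 2, where Krt10-high cells had 9.56 and Krt14-high cells 3.34 CPM (log2 -1.27, SE 1.32). Pfkl was lower on each plate, with 0.97 against 3.28 CPM on that same plate and a count of 0 in the 16 Krt10-high cells of vehicle replicate 2 (log2 -1.98, SE 1.32). These values rest on few cells. The Krt14-high cells of vehicle replicate 2 held 3 Pfkl counts, all in 1 of 28 cells. On PRT4165 replicate 1 it was 23 counts in 2 Krt14-high cells against 2 counts in 1 Krt10-high cell. On PRT4165 replicate 2 a single cell gave 92.9% of the Krt14-high and 93.3% of the Krt10-high counts. Eno1 was at 36 against 102 CPM on vehicle replicate 1 and at 95.1 against 83.2 on PRT4165 replicate 2, so plates went opposite ways (log2 -0.58, SE 0.46). Pgam1 (-0.18, SE 0.51), Pkm (-0.21, SE 0.55) and Ldha (-0.13, SE 0.45) had fitted values near that of all genes. Their sign turned without 1 plate: Pgam1 to 0.03 and Ldha to 0.16 without vehicle replicate 2, and Pkm to 0.23 without vehicle replicate 1.

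**Figure D3:**
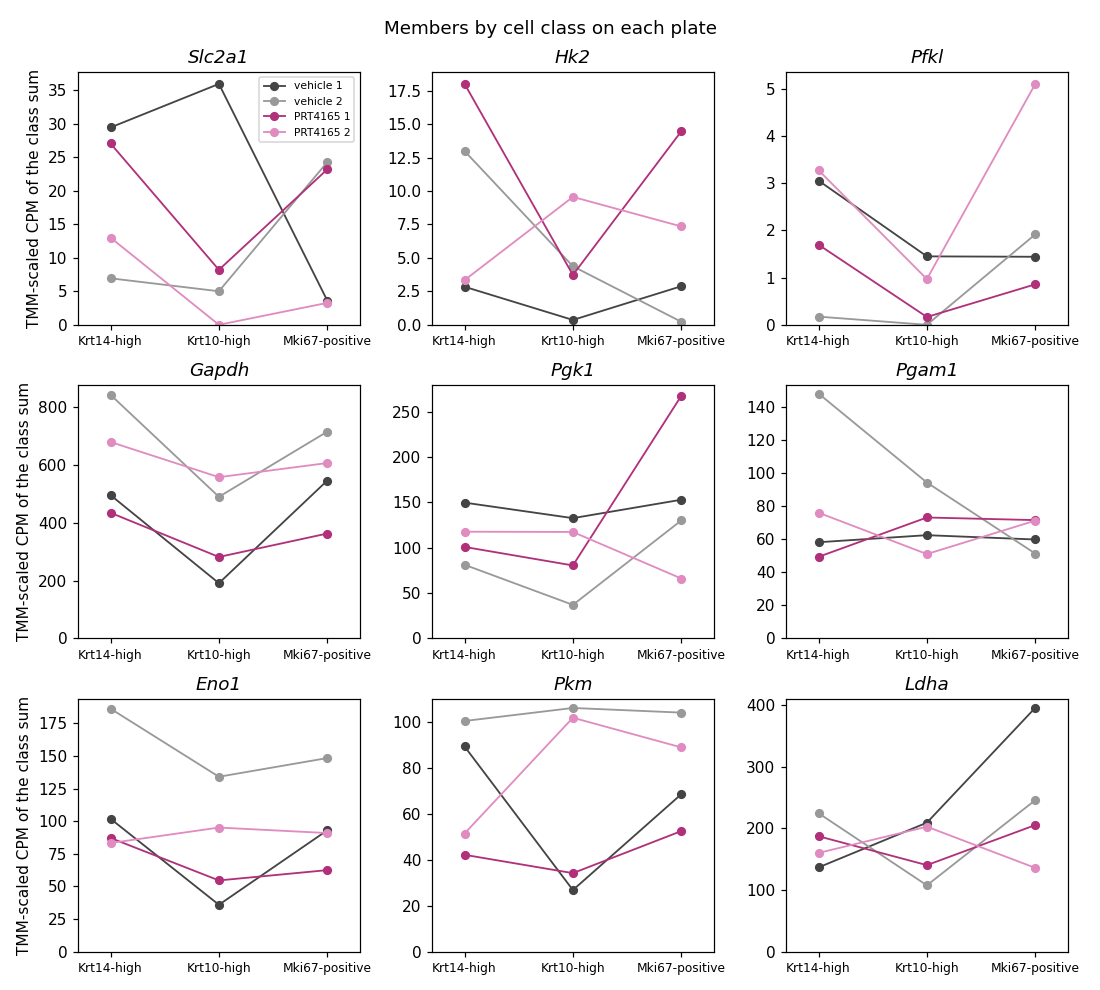
TMM-scaled CPM of the summed cells of each class are plotted for the 9 members, with 1 line per plate from Krt14-high through Krt10-high to Mki67-positive cells. Gapdh dips in Krt10-high cells on all 4 plates, for instance from 844 to 490.2 CPM on vehicle replicate 2, while the lines of Pkm and Ldha cross.

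Depth and cell makeup moved with these classes. Krt10-high cells had a median of 557752 counts against 310482 in Krt14-high cells. The Krt14-high class also held cells with markers of other follicle parts: the 8 sebaceous gland markers, all with a row in the table, summed to between 913 and 6464 CPM on a plate in Krt14-high and between 359 and 487 in Krt10-high cells, and the 6 bulge markers to between 1085 and 2765 against 211 and 657 CPM. The 2 of 6 immune markers with a row summed to at most 3.73 CPM in any class and plate, and the 5 of 6 fibroblast markers with a row to between 11.6 and 100.7 CPM in Krt14-high and between 0.497 and 5.06 CPM in Krt10-high cells. The 6 upper hair follicle markers summed to between 55596 and 119035 CPM in Krt10-high and between 6482 and 47718 CPM in Krt14-high cells, and 4 of the 6 were higher in Krt10-high cells on each plate. The part of sebaceous, bulge and upper hair follicle cells in the class differences was not tested.

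Other genes of the pathway were taken from lists. Of 11 tested other glycolytic enzymes, among them Tpi1, Gpi1, Pfkp and Ldhb, 7 had fitted values below 0 in Krt10-high cells and 0 were called, with a median of -0.73 beside -0.16 over all genes. The heart-type subunit Ldhb had -1.61 (SE 0.88) and the platelet-type phosphofructokinase Pfkp -0.74 (SE 0.69). Pfkp was more abundant than the member Pfkl, with 61.6 ± 38.6 against 2.20 ± 1.53 CPM in Krt14-high cells (SD, n = 4 plates, not per length). Tkt, the transketolase of the pentose phosphate branch, had -1.65 (SE 0.56), with 91.6 ± 14.8 CPM in Krt14-high and 22.6 ± 9.83 CPM in Krt10-high sums, ranges that lay apart (edgeR unadjusted p = 0.0135, adjusted p = 0.368).

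Of 13 tested HIF1 targets outside glycolysis, 2 were fitted below 0, and their median was 0.65. Bnip3l, a mitophagy receptor, had 1.60 (SE 0.56), Ndrg1 2.79 (SE 1.24) and Mxi1, an antagonist of MYC, 3.25 (SE 1.41), at edgeR unadjusted p of 0.0158, 0.0449 and 0.0408, and 0 were called. Among transporters the sodium-coupled glucose carrier Slc5a1 had 3.63 (SE 1.35, unadjusted p = 0.0207) and the monocarboxylate carrier Slc16a7 -3.97 (SE 1.3, unadjusted p = 0.0109). Txnip, which lowers glucose uptake, had -1.85 (SE 0.74) and Dlat, a subunit of pyruvate dehydrogenase, -2.04 (SE 0.77). All these adjusted p were above 0.05 in the edgeR test.

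The third comparison set Mki67-positive against Krt14-high cells. The edgeR test called 6 of 11151 genes (0.0538%), 5 higher and 1 lower. They were Mki67, which defined the class, the mitotic genes Ncapg, Hmmr, Ckap2l and Cenpe, and Cyp2b10 on the lower side, named after their values were seen. No member was called, 0 members had an unadjusted p under 0.05 against 728 genes (6.53%), and DESeq2 called 351 genes with 0 members. The median member log2 difference was -0.12 beside -0.26 over all genes. The Mki67-positive class was mixed, and 5 of its cells had Krt10 above Krt14. Its 10 suprabasal markers summed to between 1860 and 16131 CPM on a plate, against 3751 and 8012 in Krt14-high cells. Basal markers summed to 3349 to 7558 against 3896 to 6778 CPM, and fibroblast markers to 1.27 to 288 against 11.6 to 100.7 CPM. The part of this makeup in the member values was not tested.

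Mki67-positive cells had a median of 4260 genes with a count, against 3209 in Krt14-high cells. Detection after thinning was higher in them for several members. Plate means were 78.97% against 66.44% for Pkm, 89.44% against 78.91% for Ldha and 68.97% against 61.73% for Eno1. Hk2, Pfkl and Pgam1 were lower after thinning. The shift over all genes was not computed, so whether Pgk1 exceeded it was not tested. Pgk1 was detected in 92.5% of Mki67-positive cells against 61.2% of Krt14-high cells, and after thinning in 81.7% ± 13.7 against 55.4% ± 10.7 (SD, n = 4 plates). Its scaled level was 153 against 149.7 CPM on vehicle replicate 1, 130.0 against 81.2 on vehicle replicate 2 and 268 against 101 on PRT4165 replicate 1, and it was lower, 66.0 against 118, on PRT4165 replicate 2. The log2 difference was 0.44 (SE 0.53, interval -0.72 to 1.61). Ldha had 0.39 (SE 0.45) and was likewise higher on 3 plates, with 395 against 137 CPM on vehicle replicate 1, where the class held 6 cells. Pkm had 0.13 (SE 0.54). Before scaling Pkm was higher in Mki67-positive cells on all 4 plates, beside 6.3% of all genes, and after TMM scaling 0 members were (5.1% of all genes). Its value was -0.03 without PRT4165 replicate 2.

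**Figure D4:**
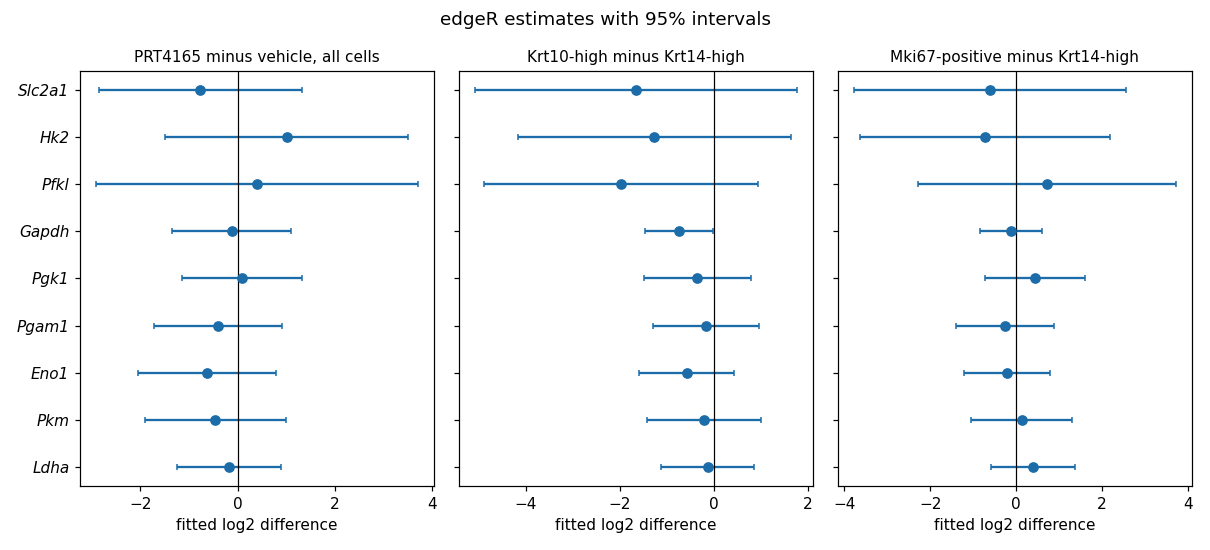
Points are fitted log2 differences from edgeR and lines their 95% intervals for the 9 members in 3 comparisons, treatment in all cells, Krt10-high minus Krt14-high and Mki67-positive minus Krt14-high. All intervals include 0 except that of Gapdh in the middle panel, which ends at -0.01.

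Across cells the members varied together weakly. Over all pairs, Spearman's rho of CPM within plates, averaged over the 4 plates, had a median of 0.14 and ran from 0.02 to 0.44. The payoff-phase enzymes gave the higher values, Gapdh with Ldha at 0.44 (plates from 0.33 to 0.52), with Pkm at 0.37, with Pgam1 at 0.33 and with Eno1 at 0.31. Slc2a1 had 0.17 with Gapdh, 0.08 with Hk2 and 0.07 with Ldha. Cells of a plate share library size and detection, and the entry genes are mostly 0, so these values describe the tables and carry no p.

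**Figure D5:**
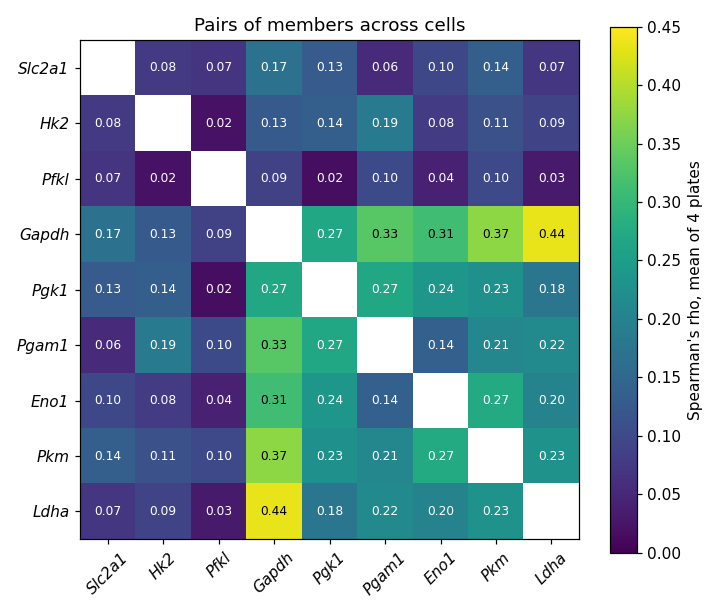
Each square gives Spearman's rho between 2 members across the cells of a plate, averaged over 4 plates. The highest values of these pairs lie in the row of Gapdh (0.44 with Ldha), and the rows of Slc2a1, Hk2 and Pfkl stay at or under 0.19.

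Genes most like the summed member CPM of a cell were ribosomal. Among 5118 genes detected in at least 25% of cells, members aside, the first 5 were Rpl41 (rho 0.68), Rpl11 (0.67), Rpsa (0.66), Rpl19 (0.64) and Rps2 (0.64), against a median of 0.10 over all candidates. Of the pathway lists Tkt ranked highest at 0.41 (place 131), followed by the serine-pathway phosphatase Psph at 0.36, and Tpi1 had 0.32. Summed member CPM also had a rho of -0.21 with total counts and of -0.33 with the mitochondrial share, averaged over plates. Gapdh weighed heavily in this sum. On the vehicle plates the members summed to 767 and 1459 CPM with it and to 471 and 706 without it. On the PRT4165 plates these sums were 802 and 1038 CPM with Gapdh and 463 and 479 without it.

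The row Aldoa-I, described after its values were seen, held 86.9 and 243 CPM under vehicle and 114 and 214 under PRT4165, and 84.3% of cells had a count. Its log2 differences were 0.10 (SE 0.61) for the treatment and -0.64 (SE 0.55) for Krt10-high against Krt14-high cells, and its rho with the summed members was 0.36.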

How the data were processed

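The authors mapped single-end Smart-seq2 reads to the mouse transcriptome with Salmon 0.13.1 and deposited estimated counts per gene symbol and cell, with no scaling. Fragments shared by near-identical transcripts are divided by that tool, which bears on Gapdh, Pgk1, Pgam1 and Eno1. Cells were kept with at least 1000 genes and at most 50% mitochondrial counts, as in the study's methods. The label letters AC were read as vehicle, since the study compares PRT4165 with vehicle and its methods dissolve drugs in acetone. The treatment label itself does not spell AC out. No doublet caller was run on sorted single cells. The highest correlation between 2 cells was 0.946, so no library appeared to be present more than once.

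Counts were summed per plate, or per plate and class, rounded, filtered with filterByExpr, TMM-normalized and tested with edgeR 4.0.16 (quasi-likelihood, R 4.3.3, Benjamini-Hochberg adjustment over all genes tested, threshold 0.05), with a plate term in class comparisons. The script was tested on simulated counts. Detection shares were compared after thinning cells to 50000 non-mitochondrial counts, which left 246 cells, with exact permutation tests over plates. Alternatives used DESeq2 1.42.0, limma 3.58.1, other scaling, filters and class rules, and each plate left out. The named genes were all members, up to 3 listed pathway genes per list and direction past the threshold, or by unadjusted p where none passed, close copies as levels, and the 5 genes most like the summed members. The members and lists were chosen with earlier results of these data known. The labels name the replicate number a batch, with 1 plate of either treatment each, and same-numbered plates deviated together only weakly (r = 0.0206).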

Additional observations from a re-analysis of the deposited data

How the results depend on the processing

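No member passed the threshold under any alternative run. Counts of genes called across the table changed by tool and filter. For the treatment in all cells, where edgeR called 0, DESeq2 called 172 and limma on plate means 19. In Krt14-high cells DESeq2 called 226 and no filter 4, in Krt10-high cells 207 and 101, for Krt10-high against Krt14-high (1 in edgeR) 702 and 3, for Mki67-positive against Krt14-high (6) 351 and 18, and for the interaction DESeq2 called 102. Krt10-high against Krt14-high gave 2 with DESeq2 size factors, 5 after thinning and 4 without cells whose keratins lay within 2-fold. Mki67-positive against Krt14-high gave 16 without a replicate block and 3 when any Mki67 count made a cell positive. With the replicate number as a replicate block, the 3 treatment fits called 0 genes, as without it. Leaving out 1 plate gave 0 calls for the treatment in all cells and for the interaction, 18 to 51 in Krt14-high cells, 0 to 13 in Krt10-high cells, 0 to 0 for Krt10-high and 0 to 1 for Mki67-positive against Krt14-high cells. The cause was not tested.

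Signs of member values that turned for the treatment in all cells were Pfkl after thinning (-0.82) and with limma on plate means (-0.0063), and Eno1 (0.51) and Ldha (0.62) with limma. Gapdh turned to -0.031 after thinning in Krt10-high cells, and Pkm to -0.23 after thinning in Mki67-positive against Krt14-high cells. With each plate left out, the treatment values ran from -1.67 to 0.23 for Slc2a1, -0.53 to 1.67 for Pfkl, -0.59 to 0.51 for Gapdh, -0.25 to 0.55 for Pgk1, -0.75 to 0.049 for Pgam1, -1.15 to 0.19 for Eno1 and -1.05 to 0.029 for Pkm, and from -0.24 to 1.13 for Gapdh in Krt10-high cells. For Krt10-high against Krt14-high they ran from -0.66 to 0.23 for Pkm, -0.43 to 0.031 for Pgam1 and -0.38 to 0.16 for Ldha, and for Mki67-positive against Krt14-high from -0.029 to 0.36 for Pkm. The thinned detection share of 3.54 points became 6.79 unthinned and ran from 2.14 to 4.93 over plates left out. The median rho between members ran from 0.129 to 0.150. Pfkl had a count in 20 of 274 cells, so its values rest on few cells.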
